A study of Mus musculus with 9 samples.

Results

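Genes of mitosis and G2/M were followed in BeCon tumor cells, a mouse ovarian cancer model, after treatment of the host mouse with YKL-05-099. The group held 54 genes out of 48230 kept from the deposited table, and all 54 had an estimate in every library. They were chosen by name as a list of known mitotic regulators, with earlier results of these data known. RNA was sequenced from 9 libraries. In 4 libraries the cells came from the ascites of BeCon-bearing B6 mice given vehicle, in 4 from such mice given YKL-05-099, and BeCon cells kept in culture gave 1 library. The cells from mice had been sorted as viable, CD45-negative and MHC class I-positive. All groups are the same tumor line, so no genotype differs between them, and the sources used here do not give dose, schedule, animal age or the number of animals behind a library. P-values therefore measure the spread between these libraries, which may be technical. The column names of the vehicle libraries share one prefix and those of the YKL-05-099 libraries another, and a cage or batch behind it, if there was one, cannot be told apart from treatment.

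Entry into mitosis is driven by the kinase CDK1 bound to A- and B-type cyclins. Aurora and polo-like kinases build the spindle, kinetochores attach chromosomes to it, the spindle assembly checkpoint holds the cell until all are attached, and the anaphase-promoting complex (APC/C) then destroys cyclin B and securin so that the sister chromatids part. Most of these genes are transcribed in G2 and early mitosis and are low in resting cells, and their transcripts are widely used as markers of proliferation. YKL-05-099 inhibits the salt-inducible kinases, which hold CRTC coactivators and class IIa histone deacetylases in the cytoplasm.

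The timing of these genes is known to be set in part by the cell cycle genes homology region, CHR, an element bound by the MuvB complexes (DREAM in resting cells, and MYBL2 and FOXM1 bound to MuvB in cycling cells), and by CCAAT boxes, which bind NF-Y. Promoter sequence was at hand in RefSeq (build GRCm38.p6) for 44 of the 54 genes, with 47 promoters between them. In the 250 bases before the annotated start, TTTGAA or TTCGAA, searched on both strands, lay in 19 of the 47 (40.4%), against 17.1% of all 32851 promoters of the table and 11.9% of the promoters of genes tested in the treatment comparison. CCAAT, also on both strands, lay in 35 of the 47 (74.5%), against 33.8% and 35.5%, and both motifs together in 18 (38.3%), against 6.02% and 4.63%. Shares are per promoter, and Bub3, Ect2 and Prc1 entered with 2 overlapping promoters each, which share sites. TTCGAA reads alike on both strands, and matches of different motifs were counted separately even where they overlapped. These are matches of letters, not measured binding. The 150 bases before the start are shown for 5 members whose window holds no annotated exon, with every motif match in capitals. They were picked to show the range from many matches (Top2a) to none (Nuf2).
Top2a, chr11:99024190-99024339, minus strand: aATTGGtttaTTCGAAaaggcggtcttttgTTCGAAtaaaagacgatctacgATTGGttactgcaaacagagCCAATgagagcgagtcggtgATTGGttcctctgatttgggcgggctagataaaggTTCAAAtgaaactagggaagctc
Mki67, chr7:135716380-135716529, minus strand: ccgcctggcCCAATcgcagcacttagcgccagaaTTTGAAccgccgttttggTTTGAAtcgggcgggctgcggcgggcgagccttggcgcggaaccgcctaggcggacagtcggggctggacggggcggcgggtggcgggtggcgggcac
Ccnb2, chr9:70421555-70421704, minus strand: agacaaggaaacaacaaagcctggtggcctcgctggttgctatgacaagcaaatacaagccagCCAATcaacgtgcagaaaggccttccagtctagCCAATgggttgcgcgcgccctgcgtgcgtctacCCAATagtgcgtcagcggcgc
Kif11, chr19:37376232-37376381, plus strand: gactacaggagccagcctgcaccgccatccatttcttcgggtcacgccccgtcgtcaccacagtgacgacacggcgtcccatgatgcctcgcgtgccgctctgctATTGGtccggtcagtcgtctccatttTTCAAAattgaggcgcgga
Nuf2, chr1:169531465-169531614, minus strand: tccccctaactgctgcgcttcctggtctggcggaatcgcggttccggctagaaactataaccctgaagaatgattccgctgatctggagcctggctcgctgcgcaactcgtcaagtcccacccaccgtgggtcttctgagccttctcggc

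Top2a, which encodes topoisomerase II alpha, had 4 CHR matches and 6 CCAAT matches within the 250 bases, and the CHR match nearest to the start began 23 bases before it. Mki67 carried 2 CHR matches, beginning 116 and 98 bases before its start. The 3 CCAAT boxes of Ccnb2 began 87, 54 and 21 bases before the start, and its CHR match, at 167, lies outside the stretch shown. Kif11, with 1 match of each, had them 19 (CHR) and 45 (CCAAT) bases before its start. Nuf2 held neither motif in its window.

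All 54 genes passed the filter for the treatment comparison, which kept a gene if 4 or more of the mouse libraries reached 1 FPKM. FPKM scale fragments to transcript length and to library size, so levels of different genes can be set side by side. Fold changes are differences of log2(FPKM + 1), which understates the change of low genes, and a gene was called when its limma p-value, adjusted by Benjamini-Hochberg over all 11788 genes tested, was under 0.05. After YKL-05-099, 52 of the 54 genes rose, none fell, and Bub3 and Pttg1 were not called. Over all genes tested 43.2% were called, 28.0% higher and 15.1% lower, a split that became nearly even under median-of-ratios scaling (52.4% of calls higher, against 64.9% as deposited) while the member count stayed at 52. The median log2 fold change of the 54 genes was 0.80, against 0.05 over all genes tested. The values of the treated libraries lay above those of all vehicle libraries for the same count, 52 of 54 genes, against 26.5% of all genes tested. Leukocyte markers were lower in all treated libraries, and with the mean of 15 such markers as a covariate 12 of the 54 genes were called, all higher, with a median log2 fold change over the 54 of 0.46. In that fit 4.6% of all genes tested were called, 2.8% higher and 1.8% lower, and their median log2 fold change was 0.04. In bulk RNA, more cells in G2 and mitosis and more of these transcripts per cell cannot be told apart.

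**Figure D1:**
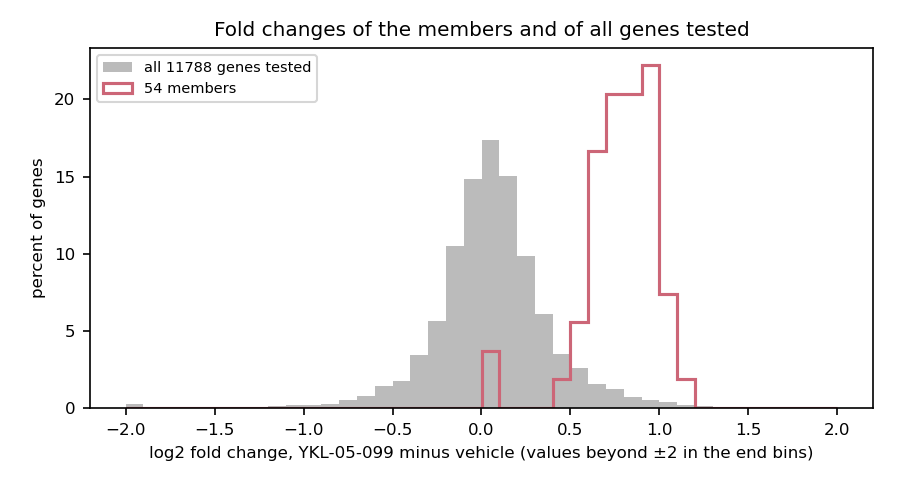
Distribution of the log2 fold change (x axis, YKL-05-099 minus vehicle on log2(FPKM + 1)) as percent of genes (y axis) for all 11788 genes tested (grey) and the 54 mitosis and G2/M genes (red outline). The members centre on 0.80 and all genes on 0.05, and the 2 members near 0 are Bub3 and Pttg1.

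The FPKM of the 54 genes summed to 625.0, 584.9, 625.2 and 686.1 in the vehicle libraries, to 1217.1, 982.4, 1005.2 and 1148.0 in the YKL-05-099 libraries and to 2821.5 in the cultured library. The lowest treated sum was thus well above the highest vehicle sum, and the cultured sum was above both groups. Among the 52 genes that rose, the ratio of group mean FPKM ran from 1.41 (Smc4) to 2.34 (Ndc80), with a median of 1.92, and 21 at least doubled.

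All 6 genes for CDK1, its cyclins and the CDC25 phosphatases that activate it were called higher. Cdk1 (chromosome 10, 69336635 to 69352938), the kinase itself, stood at 29.0, 28.6, 31.9 and 34.3 FPKM in vehicle and at 62.8, 47.6, 49.9 and 58.6 FPKM in treated libraries (limma log2 fold change 0.80 with an SE of 0.09, adjusted p = 0.000164). Ccna2, cyclin A2, stood at 17.5, 14.7, 16.7 and 19.8 FPKM and at 40.1, 31.1, 32.5 and 39.1 FPKM (limma log2 fold change 1.01 with an SE of 0.10, adjusted p = 7.55e-05). In neither gene did the groups overlap. Cyclin B2 (Ccnb2) had a mean of 17.9 ± 1.16 FPKM (SD, n = 4) in vehicle and 32.1 ± 3.99 FPKM in treated cells, and cyclin B1 (Ccnb1) 5.88 ± 0.752 and 9.70 ± 1.48 FPKM. Cdc25c was the lowest of all 54 genes in the mouse libraries, at 1.15 ± 0.051 FPKM in vehicle and 2.36 ± 0.192 FPKM after treatment. Cdc25b, whose product acts earlier in G2, ran from 7.79 to 14.1 FPKM in vehicle and from 14.7 to 20.8 FPKM in treated libraries.

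All 4 genes of the Aurora A, polo-like and MELK kinases rose. Plk1, needed for spindle building and mitotic exit, stood at 6.46, 5.93, 7.11 and 7.91 FPKM in vehicle and at 15, 12.1, 12.5 and 15.4 FPKM in treated libraries (limma log2 fold change 0.91 with an SE of 0.10, adjusted p = 0.000112). Aurka, the centrosomal Aurora kinase, stood at 4.61, 5.14, 5.43 and 7.45 FPKM and at 13.7, 11.3, 11.0 and 12.0 FPKM (limma log2 fold change 0.98 with an SE of 0.12, adjusted p = 0.000221). The highest vehicle value of either gene lay below its lowest treated value. Plk4, the kinase of centriole duplication, had the smallest rise of the 4, with a ratio of means of 1.66, and Melk had a ratio of 2.04.

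Of the spindle assembly checkpoint genes 4 of 5 rose and Bub3 was not called. Bub3 (chromosome 7, 131560222 to 131571895), whose product brings BUB1 and BUBR1 to kinetochores and is also a nuclear protein of interphase cells, stood at 36.9, 36.3, 37.9 and 37.6 FPKM in vehicle and at 37.6, 39.8, 38.8 and 41.0 FPKM in treated libraries (limma log2 fold change 0.08 with an SE of 0.04, adjusted p = 0.148). The groups overlapped, and its coefficient of variation within the vehicle group, 1.97%, was the lowest of the 54. Mad2l1, the MAD2 inhibitor of the APC/C, stood at 16.5, 15.8, 17.2 and 19.7 FPKM and at 29.3, 24.3, 24.7 and 29.0 FPKM. Ttk, the MPS1 kinase that starts checkpoint signaling, stood at 2.6, 2.20, 2.45 and 2.97 FPKM and at 5.83, 4.67, 4.78 and 5.54 FPKM (limma log2 fold change 0.80 with an SE of 0.09, adjusted p = 0.000144). Both rose without overlap. The checkpoint kinase gene Bub1 and the BUBR1 gene Bub1b had ratios of means of 1.90 and 1.75.

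Among the genes that run the APC/C and sister separation 3 of 4 rose and Pttg1 was not called. Ube2c, the ubiquitin-conjugating enzyme of the APC/C, stood at 16.8, 14.4, 15.8 and 18.5 FPKM in vehicle and at 34.6, 27.8, 30.6 and 37.2 FPKM in treated libraries (limma log2 fold change 0.95 with an SE of 0.10, adjusted p = 8.63e-05). Pttg1 (chromosome 11, 43420250 to 43426251), which encodes securin, stood at 43.6, 49.0, 41.8 and 41.3 FPKM and at 49.4, 47.3, 48.3 and 42.6 FPKM (limma log2 fold change 0.09 with an SE of 0.07, adjusted p = 0.268). Its groups overlapped, unlike those of Espl1, the gene of the protease separase that securin holds inactive, which had means of 3.63 ± 0.36 and 7.60 ± 0.986 FPKM. Cdc20, the APC/C activator, had a ratio of means of 1.64. The 2 promoters of Bub3 in RefSeq overlapped and shared the same 1 CHR match and 2 CCAAT matches. The promoter window of Pttg1 held neither. That window lay inside the Pttg1 locus given above and overlapped an annotated exon, so bases upstream of the locus were not searched.

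All 7 kinetochore and centromere genes rose, with log2 fold changes from 0.69 to 1.03. Ndc80, of the complex that grips spindle microtubules, had the highest ratio of means of all 54 genes. It stood at 3.95, 3.31, 3.78 and 3.72 FPKM in vehicle and at 10.5, 7.56, 7.67 and 8.79 FPKM in treated libraries (limma log2 fold change 1.03 with an SE of 0.10, adjusted p = 5.74e-05). Spc24, from the same complex, stood at 6.46, 6.46, 7.94 and 8.51 FPKM and at 17.6, 12.6, 14 and 15 FPKM. Cenpa, the centromeric histone H3 variant and the most abundant of the 7, stood at 22.4, 21.6, 24.8 and 24.2 FPKM and at 42.2, 35.4, 35.5 and 40.0 FPKM (limma log2 fold change 0.69 with an SE of 0.07, adjusted p = 6.92e-05). No vehicle library reached a treated one in any of these genes. Spc25 and Cenpf, a large protein of the outer kinetochore, had ratios of 2.08 and 1.93, and Nuf2, the partner of NDC80, and Cenpe, a kinetochore motor, 2.15 and 2.07.

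All 4 genes of the chromosomal passenger complex, which corrects wrong attachments and later directs cytokinesis, rose. Aurkb, its kinase, had the largest log2 fold change of the 54 genes. It stood at 8.97, 8.38, 8 and 11.0 FPKM in vehicle and at 22.9, 19.3, 18 and 24.6 FPKM in treated libraries (limma log2 fold change 1.14 with an SE of 0.11, adjusted p = 6.92e-05). Birc5, which encodes survivin, stood at 22.4, 22.1, 21.9 and 23.4 FPKM and at 50.7, 36.3, 39.7 and 43.1 FPKM, tight in vehicle and wide after treatment. The borealin gene Cdca8 had a ratio of means of 1.82 and the scaffold gene Incenp one of 1.58.

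All 8 mitotic kinesins rose, with log2 fold changes from 0.57 (Kif22) to 1.03 (Kif11). Kif11, the Eg5 motor that pushes spindle poles apart, stood at 12.9, 11.1, 13.0 and 14.8 FPKM in vehicle and at 31.7, 24.3, 25.8 and 28.4 FPKM in treated libraries (SE 0.10, limma adjusted p = 5.08e-05). Kif20a, a motor of the central spindle, stood at 7.31, 7.42, 7.53 and 8.24 FPKM and at 15.8, 12.6, 12.7 and 15.5 FPKM. Both were free of overlap. The centralspindlin motor gene Kif23 had a ratio of 2.07, the midzone kinesins Kif4 and Kif20b 1.77 and 1.93, and Kif18b, which shortens astral microtubules, 1.92. Kif2c, the depolymerase that frees wrongly attached microtubules, had a ratio of 2.10. The 5 genes of spindle microtubule proteins rose as well. Nusap1, a microtubule bundler, stood at 6.87, 6.42, 7.03 and 7.71 FPKM and at 18.3, 13.1, 13.9 and 16.8 FPKM (limma log2 fold change 1.04 with an SE of 0.10, adjusted p = 6.48e-05). Prc1, which crosslinks midzone microtubules, stood at 21.3, 17.8, 19.8 and 21.9 FPKM and at 42.1, 34.0, 31.6 and 39.7 FPKM, and Tpx2, the activator of Aurora A, at 9.77, 8.44, 8.96 and 10.8 FPKM and at 20.7, 15.7, 15.7 and 19.3 FPKM. In all 3 the groups were apart. Hmmr and Dlgap5, both spindle assembly factors, had ratios of 2.13 and 1.83.

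The 3 cytokinesis genes rose. Racgap1, the GTPase-activating subunit of centralspindlin, stood at 27.9, 26.6, 27.4 and 29.7 FPKM in vehicle and at 51.6, 42.4, 44.0 and 52.4 FPKM in treated libraries (limma log2 fold change 0.74 with an SE of 0.07, adjusted p = 6.87e-05). Anln, the anillin scaffold of the contractile ring, stood at 24.1, 22.2, 22.4 and 23.0 FPKM and at 38.7, 33.2, 34.7 and 38.7 FPKM. The groups were apart in both, and in Ect2, the RhoA exchange factor, with a ratio of 1.72.

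The 6 genes of chromosome structure rose, by differing amounts. Top2a stood at 28.9, 24.6, 27.9 and 36.2 FPKM in vehicle and at 68.0, 53.9, 50.5 and 62.7 FPKM in treated libraries (limma log2 fold change 0.98 with an SE of 0.12, adjusted p = 0.000222). Smc4, a core ATPase of both condensin complexes, stood at 34.8, 31.3, 39.3 and 40.1 FPKM and at 55.4, 46.4, 50.4 and 52.4 FPKM (limma log2 fold change 0.48 with an SE of 0.08, adjusted p = 0.00137), the smallest rise among the genes called. Top2a thus doubled where Smc4 rose by less, although neither overlapped between groups. Its partner Smc2 had a ratio of means of 1.6, and the condensin I subunits Ncapd2 and Ncapg had ratios of 1.92 and 2.13. The proliferation marker Mki67 had means of 7.95 ± 0.882 and 15.3 ± 1.88 FPKM.

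Of the 2 transcription factor genes, Foxm1 stood at 6.52, 6.39, 7.87 and 7.71 FPKM in vehicle and at 17.8, 14.1, 12.8 and 14.2 FPKM in treated libraries (limma log2 fold change 0.95 with an SE of 0.10, adjusted p = 9.89e-05). Mybl2 stood at 1.45, 1.67, 1.84 and 2.67 FPKM and at 3.62, 2.90, 3.06 and 2.83 FPKM (limma log2 fold change 0.51 with an SE of 0.13, adjusted p = 0.00917). Both rose, and Mybl2, with vehicle replicate 4 close to the treated values, had the largest adjusted p of the 52 genes called and the widest vehicle spread, a coefficient of variation of 27.8%.

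**Figure D2:**
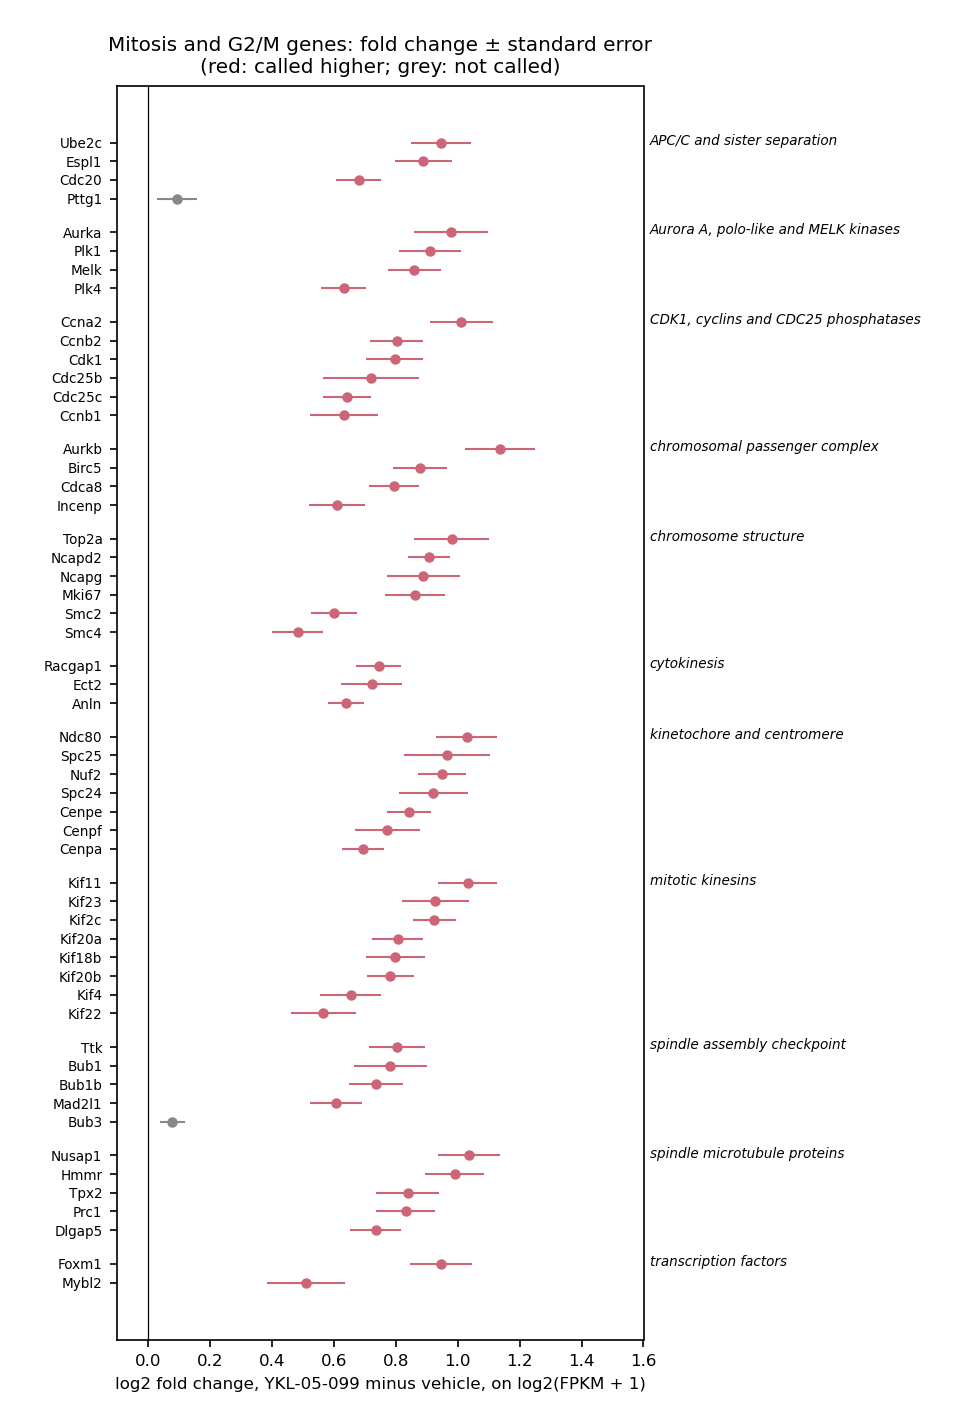
Log2 fold change (x axis, YKL-05-099 minus vehicle on log2(FPKM + 1), bars are the standard error from limma) of each of the 54 genes (y axis), grouped by role, with 4 libraries per group. Genes called higher are red, and the grey points, Pttg1 (0.09) and Bub3 (0.08), were not called.

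Because partners of one complex differed in the size of their rise, 15 ratios between FPKM of partners were compared between the groups. They were picked after the values had been seen, so they are given as a description with no test. For 9 of the 15 the groups did not overlap. No share over other gene pairs was computed to set beside this count, so it is no result about complexes. Bub3 and Pttg1 were not called, so a ratio to either of them restates the rise of its partner. The ratio of Bub1b to Bub3 went from 0.231 ± 0.0174 (SD, 4 libraries) in vehicle to 0.382 ± 0.0505 in treated cells, higher in 4 of 4 treated libraries, and that of Espl1 to Pttg1, separase to securin, from 0.0835 ± 0.0137 to 0.162 ± 0.0210. In the passenger complex Aurkb went from 0.882 ± 0.0797 to 1.30 ± 0.111 times Incenp, Birc5 from 2.19 ± 0.152 to 2.6 ± 0.0985 times and Cdca8 from 0.926 ± 0.0356 to 1.06 ± 0.0565 times. In condensin, Ncapg went from 0.0891 ± 0.00407 to 0.134 ± 0.0165 times Smc4 and Ncapd2 from 0.555 ± 0.0746 to 0.750 ± 0.0245 times Smc4. Cyclin A2 went from 0.554 ± 0.0434 to 0.653 ± 0.0118 times Cdk1, and Kif23 from 0.211 ± 0.0169 to 0.255 ± 0.0180 times Racgap1. The other 6 ratios overlapped between groups, among them cyclin B1 to Cdk1 (0.190 ± 0.0195 and 0.177 ± 0.0102), cyclin B2 to Cdk1 (0.579 ± 0.0518 and 0.586 ± 0.0238) and Ndc80 to Nuf2 (0.860 ± 0.0633 and 0.930 ± 0.0616). An overlap does not show that the ratios were equal.

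The order of the levels shifted with this. In vehicle cells Pttg1 was the most abundant of the 54 transcripts at 43.9 FPKM, and its lowest library (41.3) lay above the highest of Bub3 (37.9), the next in order. Bub3, Smc4 and Cdk1 followed at 37.2, 36.4 and 31.0 FPKM, and Smc4 overlapped both of its neighbours. In treated cells Top2a (58.8 FPKM), Cdk1 (54.7) and Smc4 (51.1) led, with ranges that overlapped, and Pttg1, at 46.9 FPKM, came after Racgap1 at 47.6 FPKM. Mybl2 and Cdc25c closed the order in both groups.

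Within each group most members were highest in the same library and lowest in the same library. Vehicle replicate 4 was the highest vehicle library for 39 of the 54 genes and vehicle replicate 2 the lowest for 37. Pttg1 ran the other way, highest in vehicle replicate 2 (49.0 FPKM) and lowest in vehicle replicate 4 (41.3 FPKM). YKL-05-099 replicate 1 was the highest treated library for 42 genes and replicate 4 for the other 12, while replicate 2 was the lowest for 34 and replicate 3 for 17. No share over all genes tested was computed to set beside these counts, so they are no result about the members. The median log2 difference from the vehicle mean over the 54 genes was -0.11 and 0.12 in vehicle replicates 2 and 4, and 0.98, 0.67, 0.70 and 0.90 in YKL-05-099 replicates 1 to 4, so the libraries within a group differed by less than the groups did.

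Markers of leukocytes moved in the opposite direction. The mean log2(FPKM + 1) of 15 pan-leukocyte markers was 1.80, 2.05, 1.53 and 1.43 in vehicle libraries. In treated libraries it was 0.81, 1.13, 1.14 and 0.74, without overlap. The cultured library stood at 0.66, with Cytip at 5.67, Ptpn6 at 4.23 and Arhgdib at 1.98 FPKM, and Laptm5, Cd53 and Ptprc at 0. The mean is thus not a measure of leukocytes alone. In vehicle, replicate 2 had the most of these markers and the least of the mitosis transcripts, and replicate 4 the reverse. In treated cells, replicates 1 and 4 had less of the markers and more of the mitosis transcripts than replicates 2 and 3. Of the pan-leukocyte markers 6 of 8 tested fell, and of the macrophage and monocyte markers 8 of 10 tested fell. The 14 macrophage and monocyte markers summed to between 361.2 and 686.6 FPKM in vehicle and between 192.2 and 328.9 FPKM in treated libraries. In culture they summed to 10.4 FPKM, of which Cd68 made 10.0. Much of the sum in the mouse libraries was Cd74, the class II invariant chain. Cd74 was not called and stood at 532.4 FPKM in vehicle replicate 4. Without Cd74 the sums were 231.8, 319.3, 145.4 and 154.2 FPKM in vehicle and 20.9, 77.5, 82.4 and 21.8 FPKM in treated libraries, again without overlap. Ptprc, the CD45 gene itself, stood at 0.52 ± 0.208 and 0.13 ± 0.117 FPKM. The 11 T and NK cell markers, of which none passed the filter, summed to between 1.43 and 1.87 FPKM in vehicle libraries. In treated libraries they summed to between 1.20 and 1.98 FPKM. In culture the sum was 4.84 FPKM, of which Trac made 4.17. With the pan-leukocyte mean as a covariate the 54 genes all kept a positive fold change, and 44 had an unadjusted p under 0.05 in limma, but 12 instead of 52 were called after adjustment. Over all genes tested the same covariate took the calls from 5089 to 542, and those higher from 3304 to 330. The median standard error of the 54 genes went from 0.0932 to 0.143. The 12 were Anln, Ccna2, Cenpa, Cenpe, Hmmr, Kif11, Kif2c, Ncapd2, Ndc80, Nuf2, Nusap1 and Plk1. The covariate did not overlap between the groups, so this fit cannot tell leukocyte RNA apart from treatment. The part of leukocyte RNA in the result was not tested.

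**Figure D3:**
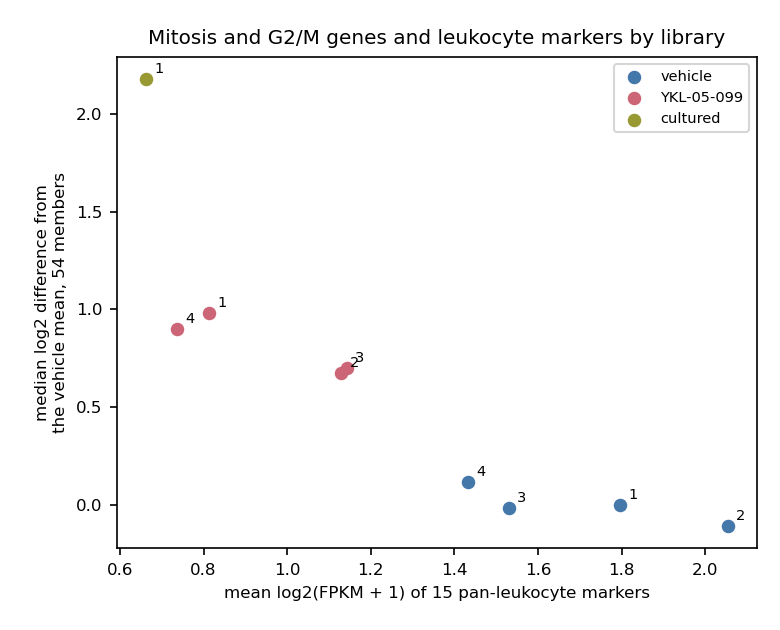
Median log2 difference of the 54 mitosis and G2/M genes from the vehicle mean (y axis) against the mean log2(FPKM + 1) of 15 pan-leukocyte markers (x axis), one point per library labelled with its replicate number. The 4 treated libraries lie at 0.67 to 0.98 on the y axis, above all vehicle libraries and to their left, and the cultured library at 2.18.

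The tumor cell label was checked against epithelial, mesothelial and ovarian markers. The keratin genes Krt8 (60.6 ± 10.1 and 60.3 ± 1.84 FPKM in vehicle and treated cells), Krt18 (172 ± 4.37 and 248 ± 4.74) and Krt19 (364 ± 18.3 and 283 ± 10.7) and the mesothelial and ovarian surface gene Wt1 (557 ± 5.77 and 513 ± 11.6) were abundant, whereas the epithelial genes Epcam and Cdh1 and the Mullerian factor gene Pax8 had means under 1 FPKM in both groups. Of the 8 ovarian and Mullerian markers tested 4 fell, Wt1 and the transcription factor genes Gata6 (214 ± 8.42 to 138 ± 13.9 FPKM), Gata4 (159 ± 24.7 to 106 ± 3.86) and Emx2 (15.1 ± 1.01 to 7.54 ± 0.855), and Muc16 rose (6.86 ± 0.907 to 9.82 ± 1.21). Of the epithelial markers Krt18 rose and Krt19 fell among 5 tested. The mesothelial genes Upk3b (562 ± 11.3 and 603 ± 21.8 FPKM), Gpm6a (205 ± 6.63 and 222 ± 7.7) and Upk1b (137 ± 16.1 and 154 ± 6.89) were abundant as well. Calb2 was listed at 0 in all 8 mouse libraries. Of 6 mesothelial markers tested 2 fell, Wt1 and Lrrn4 (9.12 ± 0.939 to 6.49 ± 0.755 FPKM). In culture Krt8, Krt18, Krt19 and Wt1 stood at 44.3, 156, 466 and 373 FPKM. Upk3b, Gpm6a and Upk1b stood at 118, 87.7 and 49.0 FPKM there, Lrrn4 at 0.99 FPKM and Muc16 at 0.112 FPKM. Krt7, another keratin gene, stood at 31.5 ± 8.12 FPKM in vehicle, 21.6 ± 3.68 FPKM in treated cells and 0.0804 FPKM in culture. Genes listed as markers of other cells also moved with treatment. All 5 erythroid markers tested fell, with sums of 243.9 to 1487 FPKM in vehicle and 1.45 to 92.8 FPKM in treated libraries. Of 5 fibroblast markers tested 4 fell, among them Col1a2 (19.7 ± 5.27 to 2.86 ± 0.627 FPKM) and Pdgfra (12.1 ± 1.37 to 5.95 ± 0.354). Dcn, the most abundant, was not called. In the cultured tumor cells Dcn stood at 243, Col1a1 at 32.2, Col3a1 at 23.6, Pdgfra at 10.5 and Col1a2 at 0.0668 FPKM. Except for Col1a2, these genes were thus also expressed by the tumor line itself. Both B and plasma cell markers tested, Ighm and Jchain, fell. The part of these cells in the result was not tested. Deposited FPKM summed to between 453169 and 482851 per library.

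Other cell cycle genes were counted from lists of the pathway. Of 73 further mitosis and G2/M genes tested, 67 rose and 2 fell (median log2 fold change 0.66). The condensin II gene Ncapg2 (8 ± 0.547 to 15.3 ± 0.863 FPKM), the inhibitory CDK1 kinase gene Pkmyt1 (12.9 ± 0.344 to 19.5 ± 0.761) and the spindle pole gene Aspm (2.45 ± 0.178 to 5.32 ± 0.552) had the smallest p. The 2 that fell were Plk2 (95.8 ± 4.29 to 51.6 ± 11.7 FPKM) and Plk3 (13.6 ± 1.44 to 8.73 ± 3.37), polo-like kinases known as stress-responsive and early-response genes. Among 32 S phase and DNA replication genes, 30 were called higher and Rrm1 (68.1 ± 4.93 to 56.2 ± 3.13 FPKM), a ribonucleotide reductase subunit, lower, with a median of 0.55. The lists of regulators and partner complexes had lower medians. Of 22 MuvB, DREAM and E2F genes 10 rose, including E2f1 (8.66 ± 0.33 to 14.6 ± 1.32 FPKM), E2f7 and E2f8, and E2f4 and Nfyb fell (median 0.15). Of 15 APC/C subunit and coactivator genes 5 rose and none fell (median 0.05), a share near the 28.0% of all genes called higher, with Anapc11 going from 49.3 ± 3.29 to 66.1 ± 1.16 FPKM. Of 10 cohesin genes 3 rose and Wapl fell (median 0.06), also near the shares over all genes, and the largest change was that of Esco2, a cohesin acetyltransferase of S phase, from 2.40 ± 0.486 to 8.23 ± 1.82 FPKM.

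The single cultured library held 53 of the 54 transcripts at higher levels than any mouse library. A single library allows no test, so a rule of size was used: a gene was apart if its cultured value was above or below every mouse library and differed from the vehicle mean by 1 log2 unit or more. By this rule 51 of the 54 genes were apart and higher and none was lower, against 9.62% higher and 10.5% lower among all 12296 genes entered. The median log2 difference from vehicle was 2.18 for the members and 0.03 over all genes entered. The 5 largest differences were those of Aurka (49.0 FPKM in culture, log2 difference 2.93), Ube2c (127.4 FPKM, 2.89), Plk1 (55.1 FPKM, 2.84), Aurkb (70.8 FPKM, 2.84) and Cdc25c (14 FPKM, 2.80). As a plain ratio to the vehicle mean, Cdc25c stood highest, at 12.1. Cdk1 led the levels in culture at 197.1 FPKM, followed by Top2a at 191.7 FPKM.

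The 3 genes that were not apart were Bub3 (64.0 FPKM), Smc4 (65.1 FPKM) and Pttg1 (39.5 FPKM). Bub3 and Smc4 lay above all mouse libraries, at log2 differences of 0.77 and 0.83, whereas Pttg1 lay just below the lowest of them, at -0.15. Securin transcripts, first among the 54 genes in vehicle cells, thus ran from 41.3 to 49.0 FPKM there, from 42.6 to 49.4 FPKM in treated cells and stood at 39.5 FPKM in culture. The comparisons of treated and of cultured cells share the vehicle libraries, so they are given side by side: the median ratio to the vehicle mean was 1.91 in treated cells and 4.99 in culture. Relative to the treated mean, 45 of the 54 genes were at least 2 times as high in culture, with a median ratio of 2.64. The other 9 were Anln, Kif11, Kif23, Mybl2, Smc2, Bub3, Spc25, Smc4 and Pttg1. Spc25, for instance, had 22.0 FPKM in culture and 14.1 ± 2.12 FPKM in treated cells. The pan-leukocyte mean was 0.66 in culture.

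**Figure D4:**
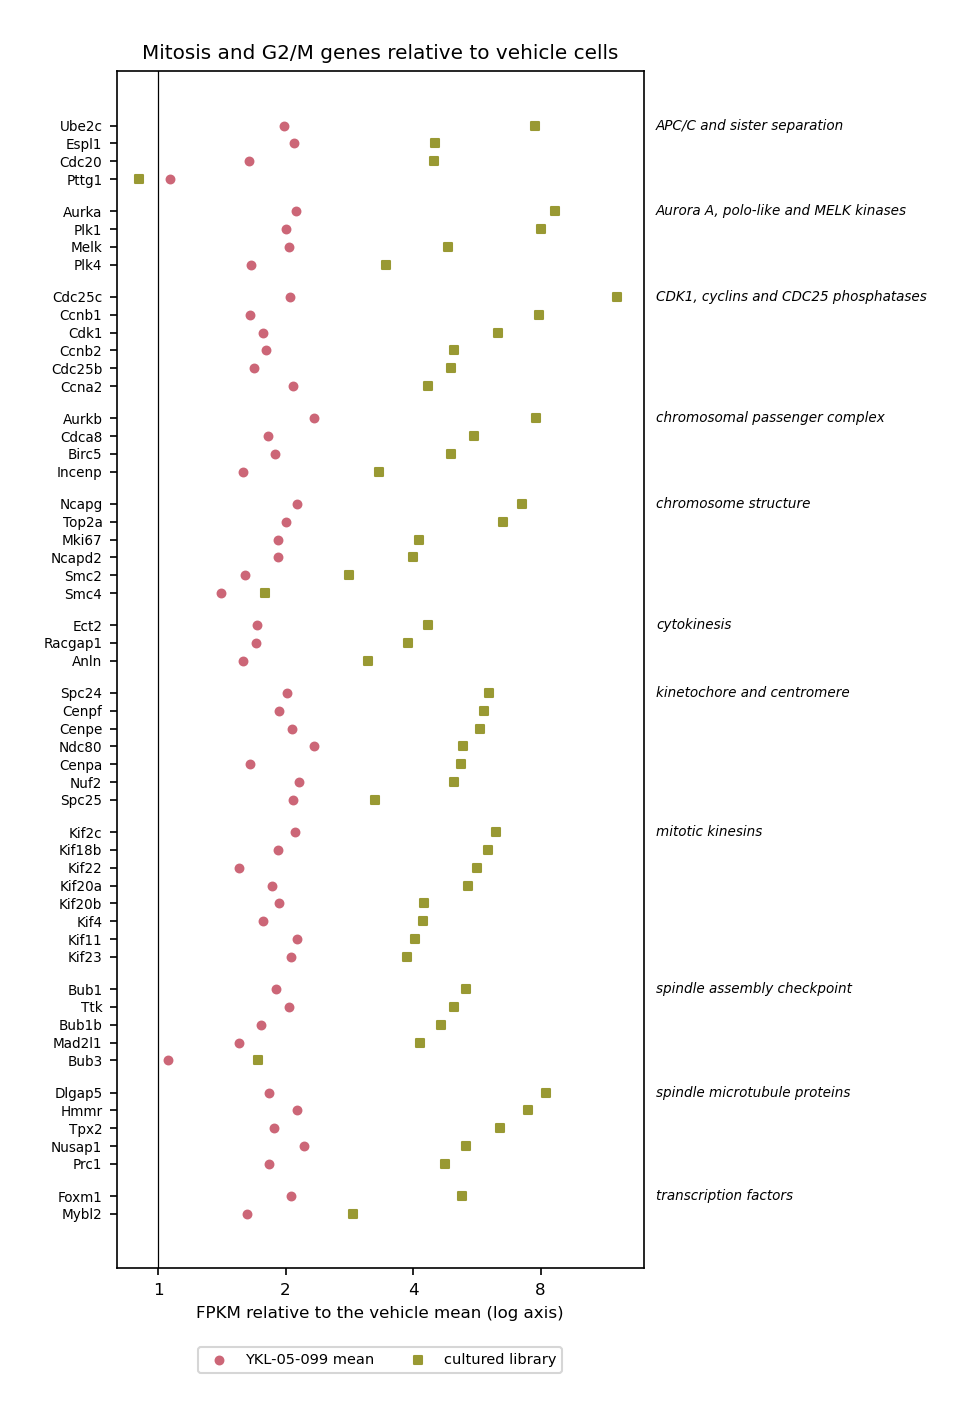
FPKM relative to the vehicle mean (x axis, log scale) for each of the 54 genes (y axis), as the mean of 4 YKL-05-099 libraries (red circles) and the 1 cultured library (olive squares). The cultured value lies to the right of the treated one for every gene but Pttg1, which is at 0.90 in culture and 1.07 after treatment.

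**Figure D5:**
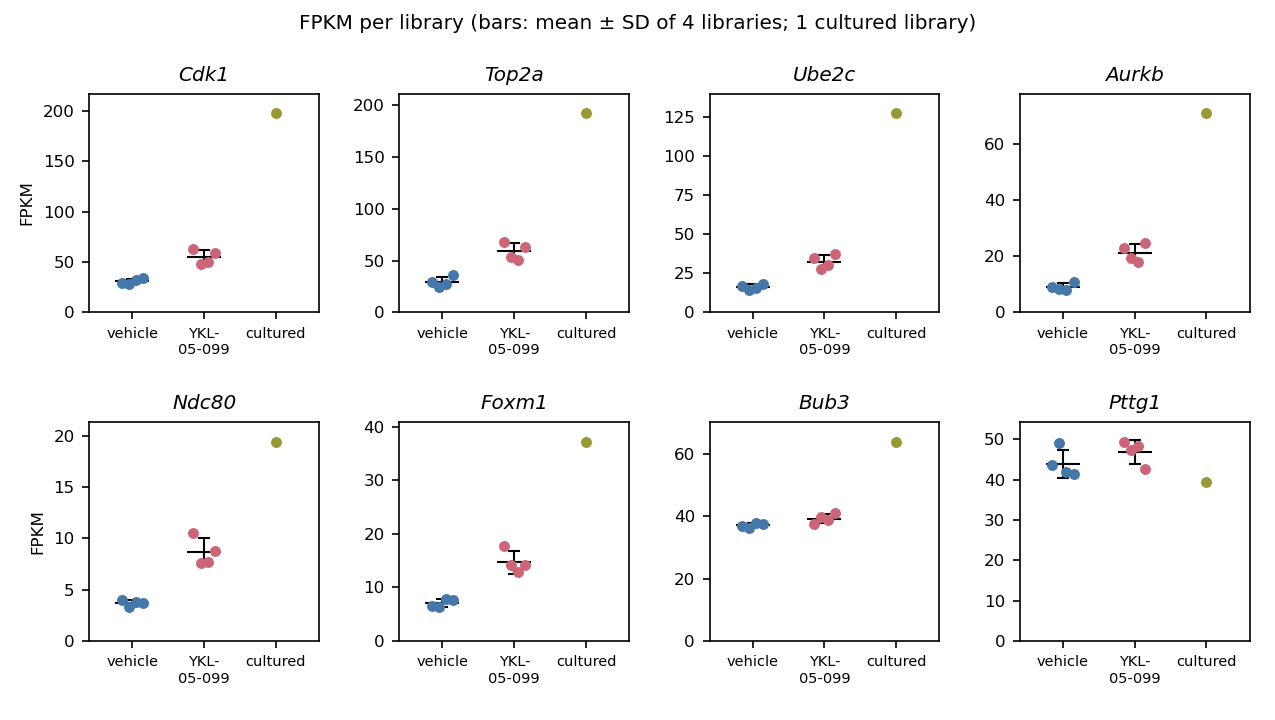
FPKM (y axis, from 0) in every library of 8 members, with bars for the mean ± SD of the 4 libraries of each mouse group and 1 point for the cultured library. Cdk1, Top2a, Ube2c, Aurkb, Ndc80 and Foxm1 step up from vehicle to treated to cultured cells, Bub3 overlaps between the mouse groups and is at 64.0 FPKM in culture, and Pttg1 stays between 39.5 and 49.4 FPKM.

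Among the further lists, 55 of 73 other mitosis and G2/M genes were apart and higher in culture and none lower, as were 11 of 32 replication and S phase genes, 2 of 15 APC/C genes and none of 10 cohesin genes. Of the 22 MuvB, DREAM and E2F genes 2 were higher and 1 lower. Over all genes entered 9.62% were apart and higher and 10.5% lower. The APC/C, cohesin and MuvB counts lie near or below these shares and are no result about those lists. The median log2 differences from vehicle were 1.64, 0.81, 0.41, 0.35 and 0.26 for the mitosis, S phase, APC/C, cohesin and MuvB lists.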

How the data were processed

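RNA of 9 samples was made into libraries with a strand-marking mRNA kit, per the labels' protocols. The authors deposited 1 table of FPKM, per the file headers, in which every value carries a status. The tool bcl2fastq 2.19 and the build GRCm38 are listed in the submitters' processing notes. Which aligner and quantification program were used is not given in the sources used here. From 48302 rows, 65 with a repeated gene identifier and 7 genes with a failed estimate were left out, leaving 48230. FPKM are not counts and are relative to the library, so no counting interval is given and a rise of some genes lowers the values of others.

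Groups came from the sample titles. Genes that reached 1 FPKM in 4 or more of the 8 mouse libraries entered limma 3.58.1 under R 4.3.3, fitted to log2(FPKM + 1), allowing for a mean-variance trend, with no block. The fit was tested on simulated data. The members and gene lists were chosen with earlier results of these data known, so no list was tested. Values per library are given for the 2 most abundant members of each role, its largest fold change, and every member not called. Deposited starts were raised by 1, and for 44 of 54 members the locus then equalled GENCODE M21. Alternatives covered pseudocount, filter, scaling, covariate, block, trend and each library left out.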

Additional observations from a re-analysis of the deposited data

How the results depend on the processing

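The count of 52 members called higher was the same under pseudocounts of 0.1 and 0.5, without a filter, with median-of-ratios, quantile and TPM scaling, with all 9 libraries in the fit, without the mean-variance trend and without each library in turn. It was 46 of 48 tested with a mean FPKM of at least 5, where fewer members enter. None was called lower in any of these. With the pan-leukocyte covariate 12 members were called, with a median log2 fold change of 0.46 and 44 at an unadjusted p under 0.05 in limma. Calls over all genes went from 5089 to 542 in the same fit, and the cause was not tested. The median log2 fold change ran from 0.74 to 0.92 under the other alternatives and from 0.75 to 0.86 without one library. Same-numbered samples deviated together in 2 of 4 pairs (correlation from -0.05 to 0.17), so the numbers were not taken to pair them, and with the replicate block 52 members were called. In culture 35 members were apart and higher by at least 2 log2 units, and by range alone 53 were higher and 1, Pttg1, lower. With TTTGAA alone 18 member promoters matched. FPKM without counts limit what can be said of low genes such as Cdc25c.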
